A study of Homo sapiens with 2 samples.

Results

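The genes described here encode red cell surface proteins that carry blood group antigens. They are the 9 genes GYPC, RHAG, RHD, RHCE, KEL, ACKR1, ERMAP, ICAM4 and AQP1, of 19974 protein-coding genes in the RefSeq table for chromosomes 1 to 22 and X. They were chosen by name, with earlier results of these data known. Every called transcription start inside each gene or within 50 kb on either side was taken. The calls come from PRO-cap, in which nuclei are run on with labelled nucleotides and the 5' ends of the new RNA are sequenced. The cells were wild-type HUDEP-2, an immortalised erythroid progenitor line made from umbilical cord blood, in 2 biological replicates and without treatment or a second group. The deposited call set does not separate the replicates, so that no spread between them can be given. A call marks a position and a strand and carries no read count, so that the depth behind it is unknown and no expression level can be compared.

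Blood group antigens are inherited differences in proteins or sugars of the red cell surface. RHAG, RhD and RhCE form the core of the Rh complex, and RHAG is needed to bring the Rh proteins to the surface. GYPC (glycophorin C, the Gerbich antigens) ties the membrane to the skeleton through protein 4.1, AQP1 (Colton) is a water channel, ACKR1 (Duffy) binds chemokines, KEL (Kell) is a zinc endopeptidase, and ERMAP (Scianna) and ICAM4 (Landsteiner-Wiener) belong to the immunoglobulin superfamily. Promoters of erythroid genes are often bound by GATA1, which reads a GATA motif, and by KLF1, which reads a CACCC box.

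Of the 9 genes, 7 had a called start (77.8%, 95% Wilson interval 45.3 to 93.7), against 40.6% of all protein-coding genes. A called start is a call within 500 bp of the outer 5' end of the gene on the gene's own strand, or, for genes without a strand in the tables used, a call that points into the gene at either end. The 7 were GYPC, RHAG, RHCE, ACKR1, ERMAP, ICAM4 and AQP1, and RHD and KEL had none. The call at RHCE lay at an outer end far upstream of the gene's starts in the promoter table, and when those starts were used, 5 of the 8 genes with an entry were called, against 47.1% of protein-coding genes with an entry. A call anywhere in the gene body was present in 7 of 9 genes, against 43.0% of protein-coding genes. The median was 2 calls per gene body (0 over all protein-coding genes) and 6 calls per window (3 over all). No test was run on these counts, since the data are 1 call set of 1 group, and the intervals cover counting error only. Of 10 erythroid marker genes, 9 had a called start, EPB42 being the exception with 3 calls in its body. None of the 15 megakaryocyte, myeloid and lymphoid markers held a call at its start or in its body. These lists were chosen with earlier results of these data known, so that they give no independent check of the cell label.

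**Figure D1:**
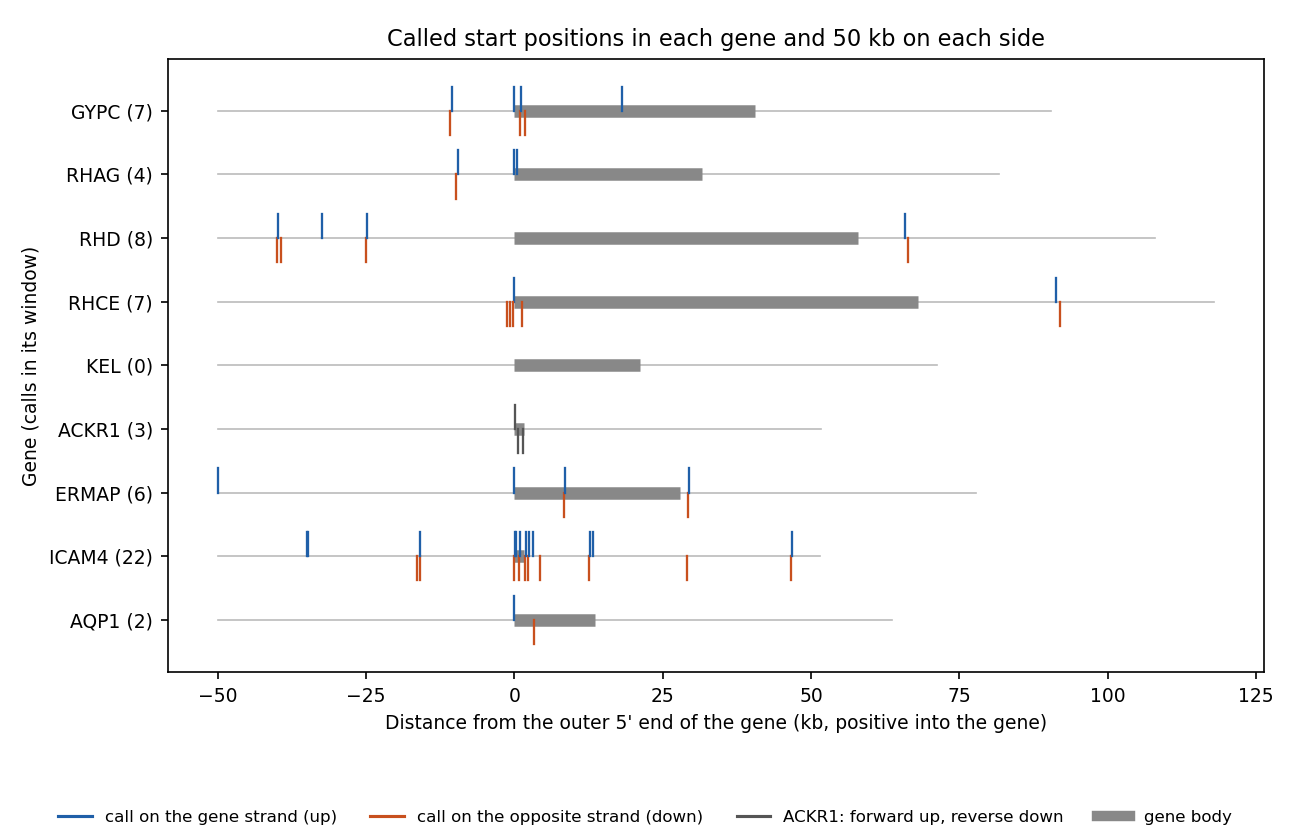
Each line is 1 gene with 50 kb on either side, and each tick is a call, plotted by its distance in kb from the outer 5' end, with calls on the gene strand drawn upward and calls on the opposite strand downward. The number after each name counts the calls in the window: ICAM4 has 22, KEL has 0, and the body of RHD is empty.

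The called starts of RHAG and AQP1, both transport proteins of the membrane, lay within 1 base of the annotated 5' ends. RHAG (chr6:49605175-49636839, reverse strand, all positions in hg38) had a call at 49636840, 1 base outside its end, and a second call on the same strand at 49636371, 468 bp into the gene. AQP1 (chr7:30911853-30925516, forward strand) had its call at 30911852, also 1 base outside. Positions are as deposited, and the letters at the called bases leave a shift of 1 base along the strand possible, in which case both calls would lie on the annotated end itself and the other distances would change by 1 base. Neither had a call on the opposite strand within 2000 bp upstream. AQP1 held 1 further call, at 30915225, which ran antisense 3372 bp into the gene, and its window held no other. Of the 6 genes of known strand with a called start, RHAG and ICAM4 had more than 1 call at the start, against 14.4% of such protein-coding genes.

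The sequences around these starts are shown because their motif matches differ. They are RefSeq sequences of GRCh38.p14 from 150 bases before to 20 bases after the annotated start, at chr6:49636820-49636989 (reverse strand) and chr7:30911703-30911872 (forward strand). Capitals mark matches on either strand to the GATA word AGATAA, its variant AGATAG, the word TGATAA and its variant TGATAG, and to the word CACCC. A match on the opposite strand therefore reads reversed and complemented, as GGGTG does for CACCC.
RHAG: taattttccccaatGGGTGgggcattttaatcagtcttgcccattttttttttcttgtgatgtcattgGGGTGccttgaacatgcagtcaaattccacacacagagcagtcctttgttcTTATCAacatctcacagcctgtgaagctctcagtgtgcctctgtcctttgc
AQP1: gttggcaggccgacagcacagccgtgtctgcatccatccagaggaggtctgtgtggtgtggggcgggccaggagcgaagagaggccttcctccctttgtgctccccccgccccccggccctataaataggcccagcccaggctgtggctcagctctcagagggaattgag

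RHAG had a GATA match 25 to 30 bases upstream of its called base, whereas AQP1 had a TATAA 25 to 29 bases upstream and no GATA match. The only CACCC match of AQP1 lay 20 to 24 bases after its start, beyond the stretch printed. A forward TATAA with its first letter 25 to 35 bases upstream lay at 2.70% of 6813 calls in promoter entries of protein-coding genes. A GATA match on either strand lay there at 0.558% of them. This position was examined after seeing the data, and what the matches do was not tested. RHAG also carried matches to CACCC 77 to 81 and 131 to 135 bases upstream of the call, each beside a CCAAT word. One of those CCAAT words overlapped its CACCC match by a base. The entry of RHAG was 42.0% G and C with 1 CG dinucleotide and that of AQP1 65.3% with 10, and the median over the 22132 entries of protein-coding genes was 62.3% with 21 CG dinucleotides.

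GYPC and ICAM4 each held 4 calls inside the gene, the most among the 9 genes. GYPC (chr2:126656158-126696667, forward strand) had its called start at 126656146, 12 bp outside the annotated end. Within the gene followed a reverse call at 126657056 and a forward call at 126657342, which are 286 bp apart and 898 and 1184 bp into the gene, then a reverse call 1867 bp and a forward call 18.16 kb into it. Of these 4 calls, 2 ran with the gene and 2 against it. No other annotated protein-coding gene lay in the window. Beside the start call, the only calls outside the gene were a divergent pair upstream, a reverse call at 126645334 and a forward call at 126645619, 10.54 to 10.82 kb before the start and outside every annotated gene.

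The GYPC promoter, at chr2:126656008-126656177 (forward strand), is shown with the GATA and CACCC matches in capitals.
GYPC: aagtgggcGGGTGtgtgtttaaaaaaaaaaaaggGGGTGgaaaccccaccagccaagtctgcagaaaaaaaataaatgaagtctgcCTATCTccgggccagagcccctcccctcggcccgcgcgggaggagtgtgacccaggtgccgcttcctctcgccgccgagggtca
Its GATA match lay 47 to 52 bases upstream of the called base, with CACCC matches 100 to 104 and 126 to 130 bases upstream.

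ERMAP, whose product is a receptor-like protein of the erythroid membrane, had calls at both of its annotated starts. At the outer start (ERMAP, chr1:42817122-42844991, forward strand) the call lay at 42817124, 2 bp inside. At the inner start, 8.44 kb downstream, a forward call at 42825612 lay 51 bp after the annotated position of 42825561, with a reverse partner at 42825462, 150 bp away. The outer start had no reverse call within 2000 bp upstream. It lies inside the annotated extent of the neighbouring gene SVBP, which runs the other way. The inner pair is more than 1000 bp from every gene end and so counts as distal by outer gene coordinates, yet it sits on an annotated start of ERMAP.

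The sequences of both starts are printed because they differ in composition, the outer from chr1:42816972-42817141 (forward strand) and the inner from chr1:42825411-42825580 (forward strand).
ERMAP outer: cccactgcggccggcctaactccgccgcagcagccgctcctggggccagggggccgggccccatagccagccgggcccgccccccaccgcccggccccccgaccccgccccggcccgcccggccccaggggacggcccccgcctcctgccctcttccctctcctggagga
ERMAP inner: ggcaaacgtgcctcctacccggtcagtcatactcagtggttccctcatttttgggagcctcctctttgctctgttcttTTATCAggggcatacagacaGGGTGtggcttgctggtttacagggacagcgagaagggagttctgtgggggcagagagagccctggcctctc
The outer entry was 75.3% G and C with 30 CG dinucleotides, no GATA match and 1 CACCC, 204 to 208 bases before the start. The inner entry was 49.0% G and C with 5 CG dinucleotides and held GATA matches 67 to 72 and 210 to 215 bases before the start. The nearer of these was followed by a CACCC match 48 to 52 bases before the start. Both starts of ERMAP were therefore called, and of their promoter entries the inner one held the GATA matches.

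**Figure D2:**
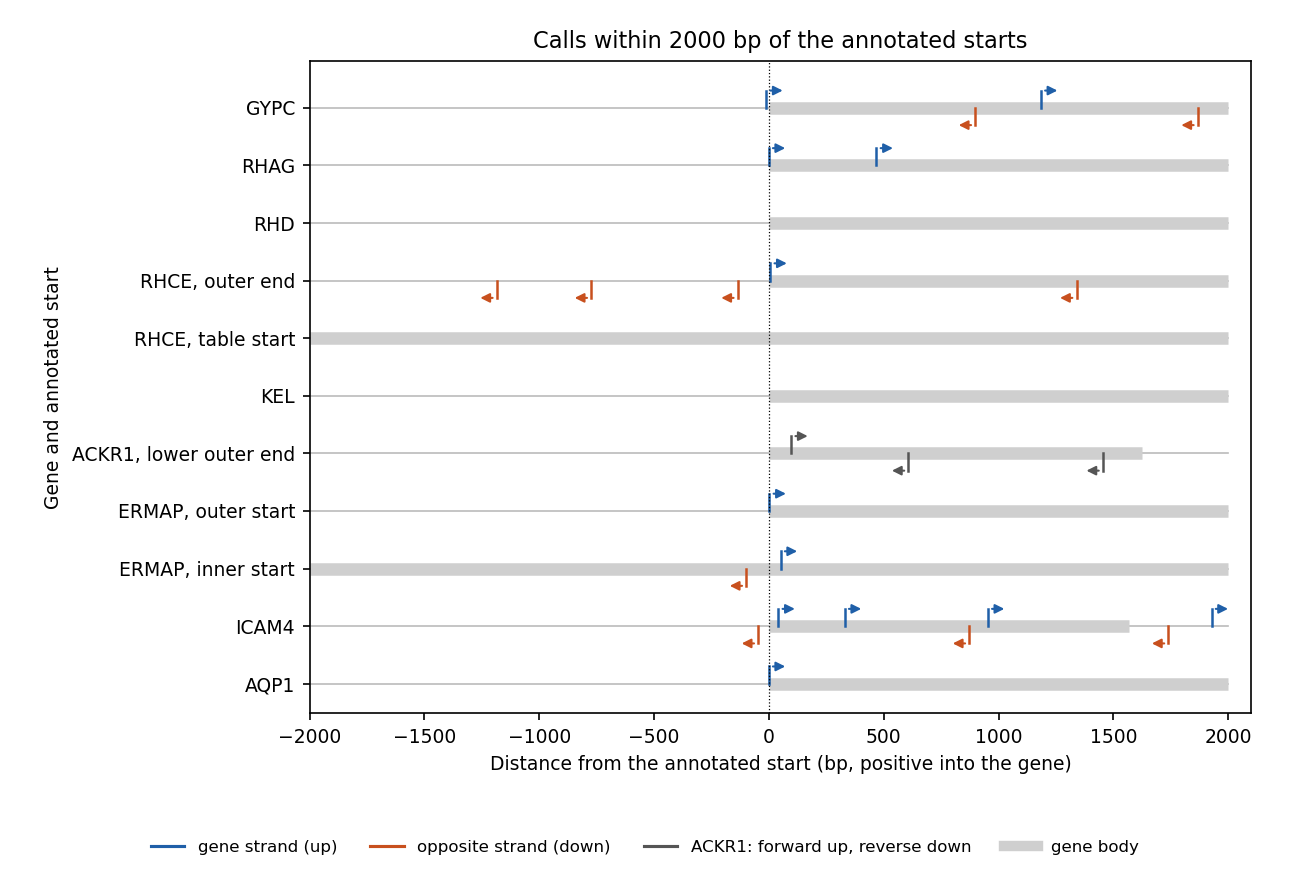
Calls within 2000 bp of the annotated starts are drawn as arrows in the direction of transcription, gene strand upward and opposite strand downward, against the distance in bp. RHAG, AQP1 and the outer start of ERMAP have calls at 0 within 2 bp and nothing upstream, ICAM4 has calls on both strands, and RHD, KEL and the table start of RHCE have no call.

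ICAM4, an adhesion molecule that binds integrins, lay in the densest surroundings. ICAM4 (chr19:10286955-10288520, forward strand) is 1.57 kb long and held 4 calls, 3 of them with the gene. Of 1247 protein-coding genes shorter than 2000 bp, 0.401% held 4 or more calls. The nearest call to its annotated start was at 10286996, 41 bp inside, with a reverse partner at 10286908, 88 bp away, and a second forward call followed at 10287285, 330 bp inside. From that partner to the call of the neighbouring gene ICAM5 at 10290024, a span of 3.12 kb held 10 calls, 6 forward and 4 reverse. They formed 4 divergent pairs with spacings of 88, 81, 188 and 29 bp. The noncoding gene ICAM4-AS1 runs antisense across ICAM4, and its annotated start had reverse calls 325 bp inside and 307 bp outside.

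The whole window of ICAM4 held 22 calls, and 0.706% of protein-coding genes had as many or more. Its 7 divergent pairs included 1 away from gene ends, a reverse call at 10299562 and a forward call at 10299740, 12.61 to 12.78 kb downstream of the ICAM4 start. Other called protein-coding starts in the window were those of ICAM1, the paralogue that serves leukocyte adhesion, and of MRPL4, ICAM5, FDX2 and RAVER1. The offsets from their own ends were 11 bp outside for ICAM1, 1 bp outside for MRPL4, 72 bp inside for ICAM5, 13 bp inside for FDX2 and 1 bp inside for RAVER1. The sequence of ICAM4 is shown because its GATA match lies across the annotated start, at chr19:10286805-10286974 (forward strand).
ICAM4: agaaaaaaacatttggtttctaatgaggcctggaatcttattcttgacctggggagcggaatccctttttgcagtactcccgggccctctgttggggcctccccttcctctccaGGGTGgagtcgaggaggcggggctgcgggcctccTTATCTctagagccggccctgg
The match covered bases from 2 before to 3 after the first annotated base, which is 38 to 43 bases upstream of the called base. A CACCC match lay 73 to 77 bases upstream of the call.

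ACKR1, the Duffy antigen and the chemokine receptor of the red cell, is a short gene with 3 calls and an otherwise empty window. ACKR1 (chr1:159204875-159206500) had a forward call at 159204972, 97 bp inside its lower end, and reverse calls at 159205482 and 159206329, the latter 171 bp inside its upper end. Its strand was not taken from the tables, so that the forward call and the upper reverse call both count as starts, as both point into the gene. They lie at opposite ends and cannot both mark its 5' end. Among protein-coding genes shorter than 2000 bp, 1.2% held 3 or more calls and 87.7% held none. The neighbour CADM3 had no call within the window.

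RHD and RHCE, which encode the RhD and RhCE proteins, are near-identical copies, and calls or their lack at both are treated as uncertain here. The likeness of the copies was measured in their promoter entries only, not at the called positions of RHCE. RHD (chr1:25272486-25330445, forward strand) held no call in its 57.96 kb, and the nearest call to its start was 24.85 kb upstream. Among protein-coding genes of 50000 bp or longer, 49.9% held no call. RHCE (chr1:25362249-25430203, reverse strand) held 2. A reverse call at 25430197 lay 6 bp inside the outer end and had a forward partner 142 bp away at 25430339. The other ran antisense at 25428864. The promoter table gives the starts of RHCE at 25420935 and 25420825, 9.27 and 9.38 kb inside that outer end, and no call of either strand lay within 7.93 kb of them. The calls at the outer end lie beside the neighbouring gene MACO1, which had forward calls 80 and 491 bp inside its own start at 25430977 and 25431388.

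The downstream promoter entries of the pair, from chr1:25272359-25272528 (forward strand) and chr1:25420806-25420975 (reverse strand), are shown to let the copies be compared.
RHD: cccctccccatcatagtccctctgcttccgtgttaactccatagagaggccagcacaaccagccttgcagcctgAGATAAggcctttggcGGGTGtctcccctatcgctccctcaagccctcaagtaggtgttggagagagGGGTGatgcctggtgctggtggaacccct
RHCE: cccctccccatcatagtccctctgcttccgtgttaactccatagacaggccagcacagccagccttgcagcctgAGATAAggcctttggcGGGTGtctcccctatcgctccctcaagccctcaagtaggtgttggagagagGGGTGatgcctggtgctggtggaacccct
Over the full entries of 300 bases the copies matched at 298 positions (99.3%). They differed by G146C and A158G, with RHD first and positions counted from 1 at the 5' end of the entry, which are 105 and 93 bases before the start. The GATA match, 71 to 76 bases before the start, and both CACCC matches were the same in both. Of the 271 words of 30 bases in each of these entries, 229 (84.5%) were found in the other gene's entry, whereas the entries of GYPC, RHAG, KEL, ERMAP, ICAM4 and AQP1 shared no such word with another locus in the promoter table.

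Across all protein-coding genes, calls were fewer at promoters with a copy elsewhere. Among protein-coding entries that shared at least 50% of their words with another locus, 13 of 440 held a call on their own strand (2.95%, 1.73 to 4.99). Where no word was shared, 7115 of 21075 did (33.8%, 33.1 to 34.4). All 4 entries of RHD and RHCE were in the first class, at 52.4% to 84.5% of words. How reads with several matches were treated is not given in the sources used here, and its part in the lack of calls at RHD and RHCE was not tested.

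KEL was the 1 gene of the 9 without any call in its window, as were 28.5% of protein-coding genes. KEL (chr7:142941114-142962363, reverse strand) lay in a span of 450.8 kb without a call. The nearest calls were 128.5 kb away at 142812598 and 301.1 kb away at 143263418, the latter near GSTK1. Its promoter is shown because it held GATA and CACCC matches, at chr7:142962344-142962513 (reverse strand).
KEL: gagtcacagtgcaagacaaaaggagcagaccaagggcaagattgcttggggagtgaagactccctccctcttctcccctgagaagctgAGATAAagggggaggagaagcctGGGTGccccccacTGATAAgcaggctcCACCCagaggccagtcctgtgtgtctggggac
GATA matches lay 57 to 62 and 21 to 26 bases before the annotated start, with CACCC matches 35 to 39 and 8 to 12 bases before it. At least 2 GATA matches from 100 bases before to 50 after the start were found in 0.886% of protein-coding entries. At least 1 was found in 9.06% of entries, and in 4.56% of the 7251 entries with a call on their own strand. No word of 30 bases was shared with another promoter, so that KEL, unlike RHD and RHCE, was not a duplicated promoter by this measure. Since the threshold of the calling is unknown, the lack of calls sets no limit on how much KEL was transcribed.

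**Figure D3:**
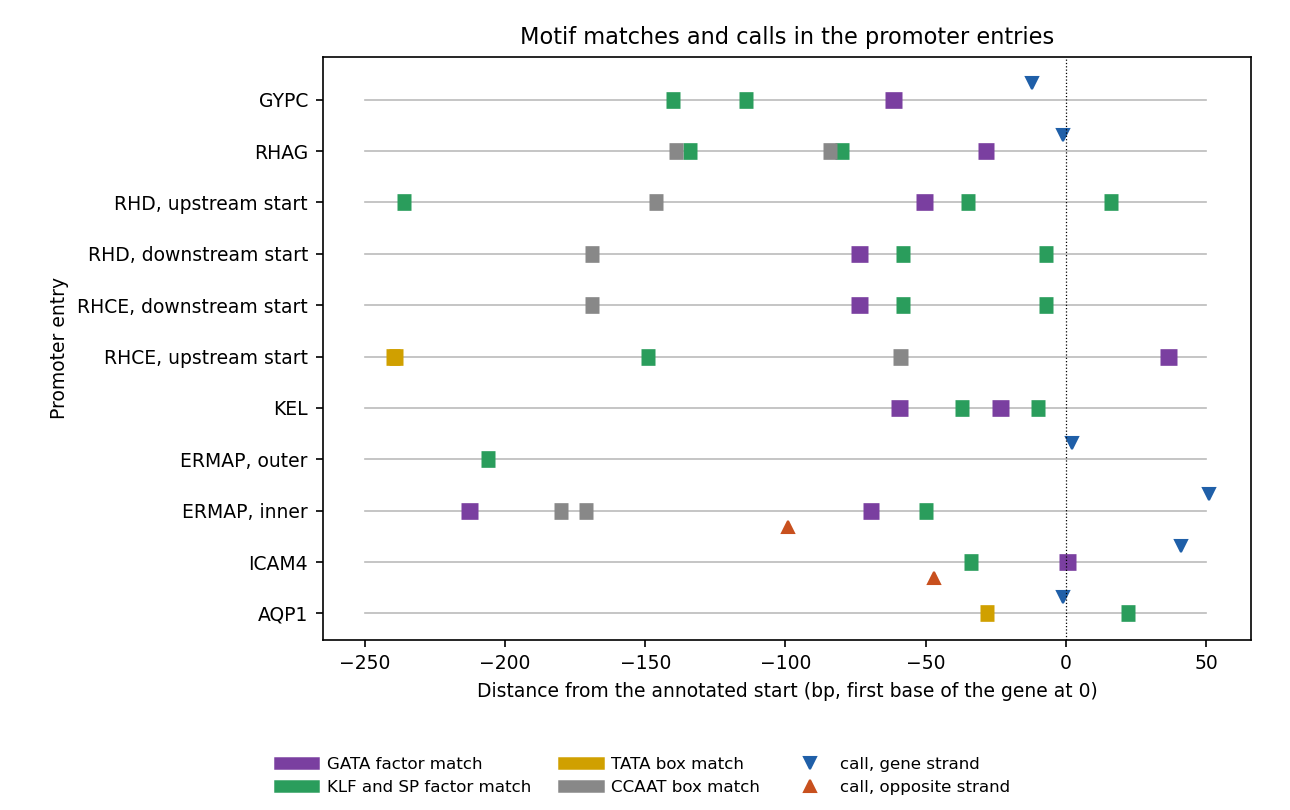
Each line is 1 promoter entry from 250 bases before to 50 after an annotated start (at 0), with motif matches as blocks and calls as triangles on the scale of bp. GATA factor matches lie in the entries of every gene shown but AQP1, including KEL and RHD, which have no call.

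The genes other than ACKR1, 8 in all, were searched for motifs, which the choice by name did not use. A GATA match was present within 250 bases before to 50 after an annotated start in 7 of them, all but AQP1, against 24.5% of 15812 protein-coding genes with an entry. From 100 bases before the start, the counts were 7 of 8 and 11.7%. Of the other blood group genes with an entry, 8 of 28 (28.6%) held a GATA match in the longer stretch and 6 of 28 (21.4%) in the shorter one. Of the erythroid marker genes with an entry, 4 of 6 (66.7%) held one in the longer stretch and 3 of 6 in the shorter one. The feature was thus neither general to blood group genes nor limited to the 8 genes searched. CACCC was found in 8 of 8 (69.0% of protein-coding genes), TATAA in 2 of 8 (20.9%), CCAAT in 4 of 8 (42.1%) and TGANTCA, the core of NFE2 and AP-1 sites, in none (8.04%). These are matches of letters on both strands, and RHD and RHCE count as 2 genes although their sequence is shared. The shares over protein-coding genes were not matched for base composition, and the GATA words are rich in A and T. The entries without a GATA match, AQP1 (65.3% G and C) and the outer start of ERMAP (75.3%), lay above the median of 62.3%. The other entries lay below it, at 42.0% to 57.7%. What part composition has in the GATA count was not tested.

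**Figure D4:**
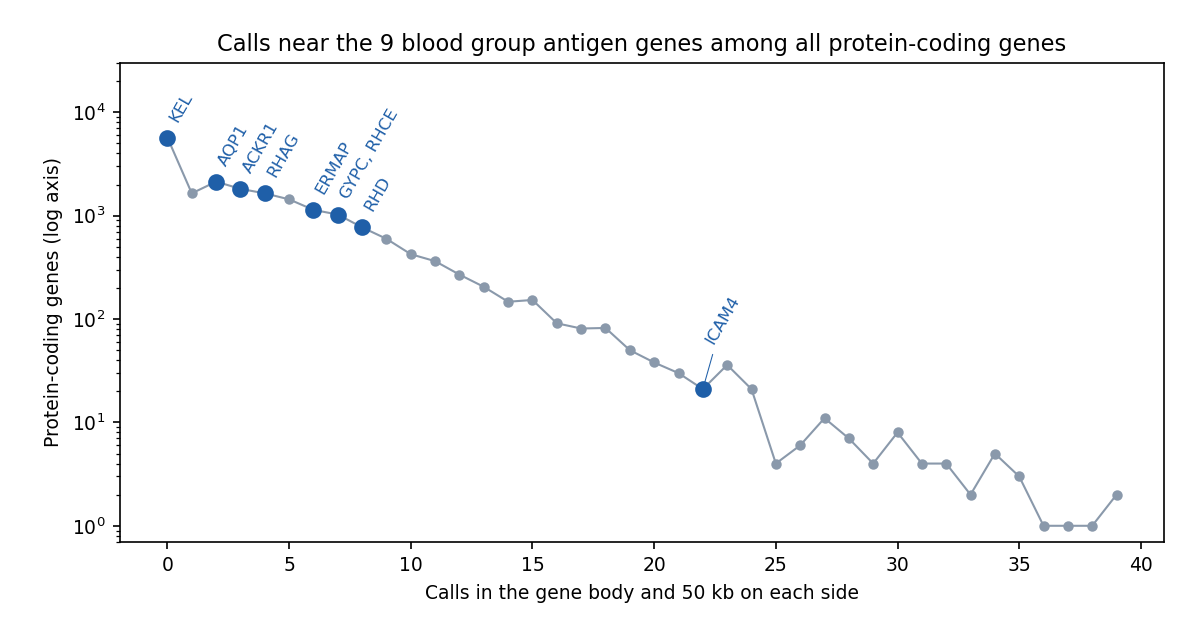
The line gives the number of protein-coding genes (log axis) with each number of calls in the gene body and 50 kb on each side, and the dark points mark the 9 genes. KEL sits at 0, 7 genes lie between 2 and 8, and ICAM4 stands at 22.

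The 9 windows held 57 calls, each counted once, since the windows of RHD and RHCE share 2. Of these, 10 counted as start calls of the 9 genes and 1 was the inner start of ERMAP. The 10 include both inward calls of ACKR1, which lie at opposite ends and cannot both mark its 5' end. Of the rest, 16 were starts of other genes and 14 lay within 1000 bp of a gene end. Deeper inside genes lay 9, and 7 were outside genes. Neighbouring protein-coding genes with a called start, beside those near ICAM4, were SYF2 and TMEM50A near RHD, TMEM50A and MACO1 near RHCE, and C1orf50 and ZNF691 near ERMAP. The 8 calls in the window of RHD thus all lay outside that gene, at SYF2, the noncoding LOC124903881, RSRP1 and TMEM50A.

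Of the 6 genes of known strand with a called start, RHCE and ICAM4 had a divergent partner within 300 bp upstream, against 51.4% of such protein-coding genes. GYPC, RHAG, AQP1 and the outer start of ERMAP had no opposite call within 2000 bp upstream. The share of all protein-coding genes at that distance was not computed, so that this cannot be called a trait of these genes. Antisense calls inside the gene were found in 5 of 8 genes of known strand (GYPC, RHCE, ERMAP, ICAM4 and AQP1), against 23.2% of protein-coding genes. The nearest start call lay within 12 bp of the outer end in 5 of 6 genes, and 48.6% of such protein-coding genes had theirs as close. It lay within 2 bp in RHAG, ERMAP and AQP1, 3 of the 6, against 33.2%. Both distances were set after the offsets of these genes were seen, so that these shares describe the genes and support nothing.

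Divergent pairs away from gene ends, with both calls more than 1000 bp from every end, numbered 5, in the windows of GYPC, RHAG, RHD, ERMAP and ICAM4, and 9.78% of protein-coding genes had one in the same window. With partners up to 150 bp apart only 1 of the 5 remained, that of ERMAP on its annotated inner start. The pairs of GYPC (10.54 kb upstream), RHAG (9.52 kb upstream, reverse call at 49646354 and forward call at 49646575, 221 bp apart) and ICAM4 lay outside genes. That of RHD lay 24.85 kb upstream inside RSRP1, whose annotated extent also covers RHD and which had no called start at its outer end. Whether the pair marks a start of a shorter RSRP1 transcript was not tested. The pair of ERMAP sat on its inner start. Without pairs near a start of the promoter table, 4 of 9 genes had one, against 6.81% of protein-coding genes.

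Of the 36 other genes that carry or make blood group antigens, 26 (72.2%) held a call in the body, against 43.0% of protein-coding genes. Called starts were present in 21 of the 36 (58.3%, 42.2 to 72.9), against 40.6% of protein-coding genes. Among them SLC4A1, the anion exchanger of the Diego antigens, XK, the partner of Kell, GBGT1, ABCB6 and the mechanosensitive channel gene PIEZO1 each had a start 1 base outside the gene end. PRNP, CD44, SEMA7A, CD55, SLC44A2, ABCC4, SMIM1 (the Vel antigen), ART4 (Dombrock), PIGG, CD59, BSG (basigin, the Ok antigens) and KLF1, the erythroid factor whose loss lowers Lutheran antigens, had starts up to 66 bp inside. EMP3, SLC14A1 (the urea transporter of the Kidd antigens) and A4GALT (the P1PK synthase) had calls farther away, 180 and 375 bp outside and 430 bp inside. ACHE, FUT1, CR1, ABCG2, SLC29A1, GYPB and CD36 were among those with calls in the body only, from 1 in CR1 and GYPB to 5 in ACHE. The 7 with neither included ABCC1, ABO, which the gene table lists as a transcribed pseudogene, AQP3, B3GALNT1, B4GALNT2 and BCAM. A GATA match within the promoter entry was found in 8 of 28 of these genes with an entry (28.6%, against 24.5% of all protein-coding genes), and from 100 bases before the start in 6 of 28 (21.4%, against 11.7%).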

How the data were processed

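PRO-cap of wild-type HUDEP-2 cells was deposited as 1 list of called start positions per strand, without values per replicate. Per the submitters' processing notes, BWA 0.7.16a, Picard, SAMtools 1.17, deepTools 3.5.4 and hg38 were used; for the caller's settings and threshold, and whether the 2 replicates were combined, the sources used here give nothing. The position columns that the authors deposited hold other values than measurements, 1-base coordinates printed 1-based, and their deposited score is 0 in each of the 26395 calls. The 26332 calls on chromosomes 1 to 22 and X were used and the closest same-strand neighbours are 251 bp from each other.

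Genes came from a RefSeq table (GRCh38.p14), and strand and inner starts from RefSeq promoter sequences, which 15812 of 19974 protein-coding genes had; the other 4162 were counted by calls pointing inward at either end. Divergent pairs are a reverse call and the nearest forward call 0 to 300 bp to its right. Counts were made with Python 3.11.15, pandas 2.3.3 and SciPy 1.17.1 (Wilson intervals). Only the finding of called starts and of divergent pairs was checked on simulated calls. These were planted inside the distances used, so that the check covers the working of the code alone. Without groups or levels no hypothesis test was run, and the planned comparison of the RhD and RhCE proteins was not run. The genes and lists were chosen with earlier results of these data known. All 9 genes, neighbouring protein-coding genes with a start and other blood group genes with a call were named by rule, and some items that the rule names are left out of the text. The distances of 2 and 12 bp from the gene end, the motif position relative to the call, the duplicated promoters, the length classes and the initiator letters were examined after seeing the data. Alternatives were windows of 200 and 1000 bp, flanks of 20 and 100 kb, pairs up to 150 and 500 bp wide, distal calls over 2000 bp from gene ends, ends of coding genes only, inward calls at either end, 1000 bp around bodies, the gene strand only, shorter promoters and leaving out RHD and RHCE.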

Additional observations from a re-analysis of the deposited data

How the results depend on the processing

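The count of genes with a called start stayed at 7 with windows of 200 and 1000 bp and with inward calls at either end. It was 6 without RHD and RHCE. With the starts of the promoter table, a setting added after seeing the data, it was also 6. These 6 are 5 of the 8 genes with an entry, and ACKR1, which has no entry and was still counted by inward calls. Other blood group genes with a start ranged from 19 to 23. Counting 1000 bp around each gene body raised the calls in bodies from 18 to 28. A partner distance of 150 bp lowered the divergent pairs from 15 to 7 and the distal pairs from 5 to 1; the 1 that remained was that of ERMAP at its inner start. With the other settings the counts of pairs and window calls stayed within 1.5 times, with 4 or 5 distal pairs (4 when starts of the promoter table also counted as ends, likewise added after seeing the data) and 45 to 71 window calls over flanks of 20 to 100 kb. The GATA count was 7 of 8 with either promoter length. No paired analysis was possible because the series has 1 group and its call set names no replicate. Leaving out a replicate was not possible for the same reason. Depth is unknown, so that a lack of calls, as at KEL and RHD, bounds nothing.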

Other observations

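The letters at the called positions bear on the distances in bases given for these genes. RNA polymerase II usually starts at a purine that follows a pyrimidine, most often CA with A as the first base of the RNA. In promoter entries of protein-coding genes, CA stood at the called base and the next one for 37.2% of 6739 calls, and at the base before the call and the called base for 1.34%. The shares were 37.4% of forward and 36.9% of reverse calls for the first arrangement, which is nearly the same on both strands. The commonest distance from the annotated 5' end was 1 base outside the gene, at 1153 of 6789 genes (17.0%), followed by the end itself at 660 (9.72%). RHAG and AQP1, and 6 of the 21 other blood group genes with a start, lay at that distance. The positions are printed as deposited, and whether they are shifted by 1 base was not tested. If they are, every distance given here between a call and an annotated start or motif changes by 1 base.

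In the blood group genes the called base and the next read CA at GYPC, RHAG and AQP1, CT at the outer start of ERMAP and AG at ICAM4. The calls of GYPC, RHAG, AQP1 and ERMAP are shown with 10 bases on the left and both letters, called and next, in capitals.
GYPC: gagtgtgaccCAggtgccgc
RHAG: gtgaagctctCAgtgtgcct
AQP1: ggctgtggctCAgctctcag
ERMAP outer: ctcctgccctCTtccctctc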
